A study of Mus musculus with 2 samples.

Results

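The AP-1 and immediate early genes were followed as a set of 10 genes: Fos, Fosb, Fosl1, Fosl2, Jun, Junb, Jund, Egr1, Atf3 and Btg2. They were chosen by symbol from the 31053 genes of the deposited matrix, and all 10 had UMIs in both libraries. Neutrophils were sorted by flow cytometry as CD11b+Ly6G+ cells from subcutaneous tumors of Lewis lung carcinoma (LLC), a mouse lung cancer line that carries its own intact Smad3. The hosts were C57BL/6 mice (C57BL/6 J in the study's methods) aged 8 to 12 weeks, either Smad3-wildtype (Smad3+/+), written Smad3-WT, or Smad3-deficient (Smad3-/-), written Smad3-KO, and every host carried an LLC tumor. Smad3 is a signal transducer of TGF-β, and the knockout is carried by every host cell, so it is not limited to neutrophils. The tumors were dissected and digested into single cells before the sort. The part of these steps in the levels below was not tested. For each genotype 8 tumors were pooled into 1 library of 5′ single-cell RNA-seq. With 1 library per genotype no test of genotype is possible, so the values below compare 2 libraries, and every interval is a 95% interval that covers counting error only.

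AP-1 is a dimer of basic leucine zipper proteins. FOS, FOSB, FRA-1 (the product of Fosl1) and FRA-2 (the product of Fosl2) pair with JUN, JUNB or JUND and bind the TPA response element, whereas dimers with ATF members prefer the cAMP response element. Immediate early genes are transcribed within minutes of a stimulus without new protein synthesis, mostly downstream of MAP kinases, the serum response factor and CREB, and their mRNAs are short-lived. EGR1 is a zinc finger factor of the same early wave, ATF3 is a stress-induced factor that can pair with JUN, and BTG2 is an anti-proliferative adaptor of mRNA deadenylation. JUND is the member usually expressed without a stimulus. In neutrophils the AP-1 genes are known for their rapid response to adhesion, cytokines and growth factor signals.

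The DNA just before the start site is shown for Fos, Jun, Atf3 and Btg2, since Fos and Btg2 went apart from Jun and Atf3 in the neutrophil clusters below and all 4 hold a match described here. Fos lies at chr12:85473890-85477273 on the plus strand, Jun at chr4:95049034-95052222 on the minus strand, Atf3 at chr1:191170296-191218039 on the minus strand and Btg2 at chr1:134075170-134079120 on the minus strand in GRCm38, the build that the submitters name as mm10. Jun, Junb and Jund have 1 exon each in the GENCODE annotation. Annotated genes on the opposite strand overlap Fosl1 (Ccdc85b), Jun (Junos), Junb (Prdx2), Jund (Gm11175) and Atf3 (Gm24748). The stretches come from RefSeq (GRCm38.p6), are written 5′ to 3′ on the strand of the gene, and cover the 250 bases before the RefSeq start site, which for Atf3 lies inside the GENCODE gene, downstream of its first start. Capitals mark the TATA box letters TATAAA, the cAMP response element core TGACGT in either orientation, the full element TGACGTCA, which contains that core, and TGACATCA, the variant in the Jun promoter.
Fos, chr12:85473640-85473889, plus strand: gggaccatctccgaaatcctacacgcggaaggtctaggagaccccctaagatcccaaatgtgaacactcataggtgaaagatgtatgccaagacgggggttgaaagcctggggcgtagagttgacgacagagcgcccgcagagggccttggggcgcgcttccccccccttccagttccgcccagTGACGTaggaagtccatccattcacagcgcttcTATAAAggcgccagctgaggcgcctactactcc
Jun, chr4:95052223-95052472, minus strand: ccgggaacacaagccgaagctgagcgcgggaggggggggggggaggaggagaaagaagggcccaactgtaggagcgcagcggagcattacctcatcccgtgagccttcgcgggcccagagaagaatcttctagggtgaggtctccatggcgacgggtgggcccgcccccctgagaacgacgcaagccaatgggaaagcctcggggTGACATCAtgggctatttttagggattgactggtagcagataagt
Atf3, chr1:191183334-191183583, minus strand: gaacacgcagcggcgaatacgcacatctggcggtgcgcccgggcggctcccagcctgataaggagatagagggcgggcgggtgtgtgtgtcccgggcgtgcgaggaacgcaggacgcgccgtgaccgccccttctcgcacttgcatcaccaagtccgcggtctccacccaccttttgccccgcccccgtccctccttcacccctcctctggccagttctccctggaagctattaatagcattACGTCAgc
Btg2, chr1:134079156-134079405, minus strand: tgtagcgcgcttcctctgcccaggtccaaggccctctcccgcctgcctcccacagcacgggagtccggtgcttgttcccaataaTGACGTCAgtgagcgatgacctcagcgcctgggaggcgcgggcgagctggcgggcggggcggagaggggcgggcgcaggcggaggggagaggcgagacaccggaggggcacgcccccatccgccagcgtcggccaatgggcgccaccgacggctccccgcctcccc

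Windows of 250 bases before to 50 after the RefSeq start site were at hand for 8 of the 10 members, the exceptions being Egr1 and Fosl1. For Jund the 250 bases end at chr8:70697738, upstream of the GENCODE gene, which begins at chr8:70698949. For Fosl2 they begin at chr5:32136222, inside the GENCODE gene, which begins at chr5:32135801. Both strands were searched. The full element TGACGTCA was in the Btg2 window alone, at position -166, where the start site is position 0, and in the windows of 2.03% of 27025 genes. The core TGACGT was in the windows of Fos (position -66), Atf3 (position -8) and Btg2, against 8.37% of all genes, and TGACATCA in that of Jun (position -45), against 4.18%. These last 2 patterns were searched after the sequences had been read. TATAAA was found in the Fos window at position -33 and at the RefSeq start of Junb, against 15.7% of genes. For Junb the 250 bases end at chr8:84978749 on the minus strand, upstream of the GENCODE gene, which begins at chr8:84978718. The TPA response element TGANTCA, the CArG box bound by the serum response factor and the Smad palindrome GTCTAGAC were in none of the 8 windows, against 8.97%, 1.81% and 0.248% of all genes. A match is a description of letters and not evidence of binding. An absence holds for these windows only, and DNA further upstream was not searched.

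The Smad3-WT library held 4116 cell barcodes with a median of 1672 UMIs, and the Smad3-KO library 2514 with a median of 1177. Filtering for at least 200 genes, under 10% mitochondrial UMIs and between 500 and 20000 UMIs left 3520 and 2433 cells with 12176201 and 4146792 UMIs. The upper limit removed 382 barcodes from Smad3-WT and 0 from Smad3-KO. Smad3 itself read 14.6 UMIs per 1000000 UMIs (CPM) in Smad3-WT and 77.4 in Smad3-KO. In the neutrophil-like cells of the 2 libraries it read 17.0 and 172. The knockout disrupts the gene near its 3′ end, the libraries count 5′ tags, and the positions of the tags were not seen. These values therefore do not check the genotype. A total of 73 barcode sequences were called in both libraries, and 24 filtered Smad3-WT cells and 46 filtered Smad3-KO cells carried one, the latter including 19 of the 35 LLC-like cells and 7 of the 1074 neutrophil-like cells.

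Cells were clustered without the members and without the related early, partner, feedback and heat shock genes, and classes were named from marker genes. Neutrophil-like cells made up 51.7% of the filtered cells in Smad3-WT (1819 cells, median 740 UMIs) and 44.1% in Smad3-KO (1074 cells, median 1010 UMIs), although both samples were sorted for neutrophils. They came mostly from clusters 1 and 7 in Smad3-WT (1383 and 410 cells) and from cluster 2 in Smad3-KO (841 cells). The other classes were macrophage or monocyte-like cells, 1097 and 119 in number, LLC-like cells 397 and 35, T or NK-like cells 62 and 465, B cell-like cells 3 and 569, dendritic-like cells 97 and 111, and fibroblast-like cells 45 and 60. Levels are given for classes of at least 50 cells in a library. In neutrophil-like cells all 10 neutrophil markers were detected in both libraries and all 5 mast cell and basophil markers were at 0. The 8 LLC markers summed to 27.0 CPM in Smad3-WT and 1.53 in Smad3-KO, and the 18 macrophage and monocyte markers to 675 and 1005. The sorting marker Ly6g read 20.1 and 187 CPM, and Itgam, which encodes CD11b, 321 and 216. The part of these differences in the results was not tested.

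Among classes of at least 50 cells, neutrophil-like cells held the highest level of 8 of the 10 members in Smad3-WT. Levels are in CPM of the class, with the counting interval in parentheses, and are compared between cells and not between genes. Fos read 2193 (2121 to 2267) in neutrophil-like cells, 618 (595 to 641) in macrophage or monocyte-like cells, 279 in T or NK-like cells, 239 in dendritic-like cells and 149.8 in LLC-like cells. Neighbours in that order were apart except the T or NK-like and dendritic-like cells, whose intervals overlapped. In Smad3-KO Fos read 1459 (1394 to 1526) in neutrophil-like cells, 851 (750.4 to 962) in macrophage or monocyte-like cells, 569.6 in fibroblast-like cells, 416 in dendritic-like cells, 259 in T or NK-like cells and 176 in B cell-like cells, with no overlap between neighbours.

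Fosb, which encodes the FOS relative most often studied in neurons, was low throughout. It read 93.02 (78.6 to 109) in Smad3-WT neutrophil-like cells and between 3.58 and 28.5 in the other classes of at least 50 cells of that library. The 45 fibroblast-like cells of Smad3-WT read 103 (70.4 to 145), which overlapped the neutrophil-like level. In Smad3-KO its highest level was in fibroblast-like cells, at 236 (187 to 294), and the neutrophil-like level of 55.3 (43.2 to 69.6) overlapped the 69.3 (42.9 to 106) of macrophage or monocyte-like cells. Fosl2 was highest in neutrophil-like cells of both libraries, at 608 (570.0 to 647) and 328 (298 to 361), and lowest in LLC-like cells of Smad3-WT (49.7) and B cell-like cells of Smad3-KO (23.3).

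Fosl1 was the exception among the Fos genes. FRA-1 is known for its expression in carcinoma cells and fibroblasts, and 577 of the 657 Fosl1 UMIs of the filtered Smad3-WT cells, 87.8%, were in LLC-like cells, where it read 118 (108 to 128). Neutrophil-like cells read 8.17 (4.35 to 13.97) from 13 UMIs. In Smad3-KO the fibroblast-like cells read 77.5 (50.6 to 114) and held 26 of 53 UMIs, and B cell-like and dendritic-like cells had 0 UMIs, where 3 UMIs would be 3.17 and 7.09 CPM.

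Among the Jun genes, Junb was highest in neutrophil-like cells of both libraries. It read 6135 (6014 to 6258) in Smad3-WT, against 1098 (1068 to 1128) in macrophage or monocyte-like cells and 897, 699 and 377 in T or NK-like, dendritic-like and LLC-like cells, all apart. JUNB often opposes JUN in proliferation, and Jun followed another order: 1287 (1232 to 1344) in neutrophil-like cells, 496 (476 to 516) in LLC-like cells and 446 (427 to 466) in macrophage or monocyte-like cells of Smad3-WT. In Smad3-KO the neutrophil-like level of Jun, 552 (512 to 594), overlapped that of fibroblast-like cells, 450.3 (381 to 528). Jund was highest outside the neutrophils, in LLC-like cells of Smad3-WT at 684 (661 to 708) and in fibroblast-like cells of Smad3-KO at 796 (704 to 898), and neutrophil-like cells read 528 (493 to 565) and 503 (466 to 543). Its lowest level was 188, in dendritic-like cells of Smad3-WT.

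In Smad3-WT Egr1 set the neutrophil-like cells further apart from the next class than any other member did. It read 3426 (3336 to 3519) in neutrophil-like cells, against 353 (336 to 371) in macrophage or monocyte-like, 322 in T or NK-like, 179 in dendritic-like and 91.9 in LLC-like cells. In Smad3-KO Egr1 read 862 (812 to 914) in neutrophil-like cells, 289 (235 to 353) in fibroblast-like cells, and between 116 and 146 in the rest. Btg2 was led by the same class, at 1232 (1178 to 1288) and 548 (508 to 589.7) in neutrophil-like cells, with the next levels, which overlapped each other, at 194 to 200.2 in dendritic-like, macrophage or monocyte-like and T or NK-like cells of Smad3-WT and at 175 to 213 in macrophage or monocyte-like, B cell-like and dendritic-like cells of Smad3-KO. Atf3 read 362 (333 to 393) and 352 (321 to 386) in neutrophil-like cells and 147 (137 to 159) and 129 (91.5 to 176) in macrophage or monocyte-like cells, which were next in both libraries and overlapped dendritic-like cells in Smad3-KO.

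**Figure D1:**
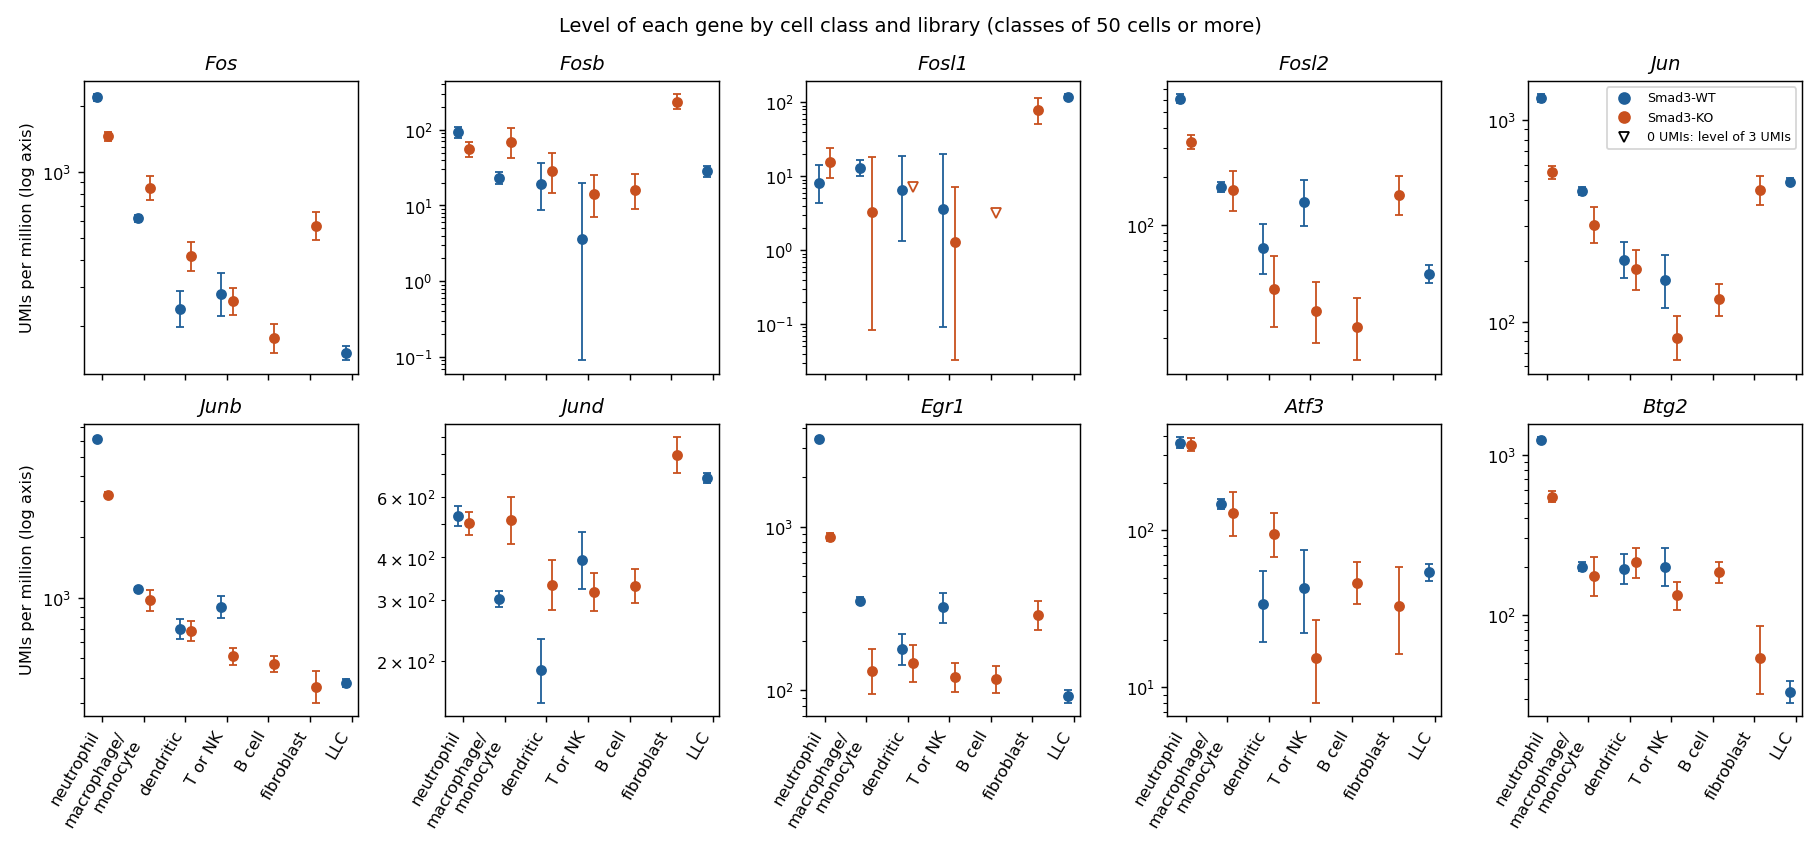
Level of each gene, in CPM on a log axis that differs between panels, in each cell class of at least 50 cells, for Smad3-WT (blue) and Smad3-KO (orange), with 95% Poisson intervals; open triangles mark the level of 3 UMIs where 0 were counted. Neutrophil-like cells lead for Fos, Fosl2, Jun, Junb, Egr1, Atf3 and Btg2 in both libraries, although the Jun intervals of neutrophil-like and fibroblast-like cells overlap in Smad3-KO, Fosl1 leads in LLC-like cells (118) and Jund in fibroblast-like (796) and LLC-like cells (684).

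The levels of neutrophil markers in the other classes were taken as a scale for the members' levels there. Whether those classes transcribe the markers themselves was not tested. The 10 neutrophil markers had, in the other classes, a median of 0.0235 to 0.0881 of their level in neutrophil-like cells of the same library. In LLC-like cells of Smad3-WT, Egr1 and Btg2 stood at 0.0268 of the neutrophil-like level for both, within the 0.0108 to 0.0608 spanned by the markers. Fosl2 in B cell-like cells of Smad3-KO stood at 0.0709, against a marker median of 0.0798. Whether these levels are background was not tested. In macrophage or monocyte-like cells of Smad3-WT, Egr1 stood at 0.103, inside the marker range of 0.0623 to 0.119, whereas Fos (0.282), Junb (0.179) and Jun (0.347) lay above it.

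Neutrophil-like cells were set against macrophage or monocyte-like cells within each library, as the ratio of their levels. Both came through a sort for neutrophils, so the ratio does not show where in the tumor a gene is expressed. In Smad3-WT 8 of 10 members were higher in neutrophil-like cells by at least 2-fold and 0 were lower by as much, against 11.9% higher and 49% lower of the 9463 genes with at least 20 UMIs. The ratios were 9.697 (9.17 to 10.3) for Egr1, 6.16 (5.69 to 6.66) for Btg2, 5.59 (5.402 to 5.78) for Junb, 4.01 (3.11 to 5.19) for Fosb and 3.55 (3.38 to 3.73) for Fos. Fosl2, Jun and Atf3 were at 3.52, 2.88 and 2.46, and the others were Jund at 1.74 (1.596 to 1.898) and Fosl1 at 0.628 (0.316 to 1.16). In cells of 500 to 1500 UMIs 5 members were higher by at least 2-fold, against 19.8% higher and 30.2% lower of 4767 genes. Atf3 was at 0.683 and Jund at 0.815 there, and Fosl1, with 13 and 1 UMIs, was not counted. The 2 classes differ in depth, with medians of 740 and 3377 UMIs. A level in CPM is a share of the UMIs of a class and not a number per cell. Jun had 2048 UMIs in the 1819 neutrophil-like cells and 2059 in the 1097 macrophage or monocyte-like cells. Egr1 had 5452 and 1630.

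In Smad3-KO 5 of 10 members were higher in neutrophil-like cells by at least 2-fold and 0 lower, against 16.7% higher and 42.7% lower of 5115 genes. These were Egr1 at 6.53 (4.77 to 9.19), Junb at 3.35 (2.97 to 3.78), Btg2 at 3.13 (2.37 to 4.23), Atf3 at 2.74 (1.97 to 3.901), and Fosl1 at 4.65 (0.744 to 193) with 1 UMI in the macrophage or monocyte-like cells. Fosl2, Jun and Fos were at 1.99, 1.82 and 1.71, Jund at 0.978 and Fosb at 0.798 (0.485 to 1.37). Median-of-ratios scaling, which raises every ratio by 0.83 on the log2 scale here, gave 8 members higher by 2-fold, against 30.2% higher and 24.6% lower of all genes.

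Egr1, Jun and Btg2 were lower by at least 2-fold in the neutrophil-like cells of Smad3-KO than in those of Smad3-WT. Egr1 read 3426 CPM in Smad3-WT and 862 in Smad3-KO, from 5452 and 1123 UMIs, a ratio of 0.252 (0.236 to 0.268). Jun read 1287 and 552, a ratio of 0.429 (0.393 to 0.467). Btg2 read 1232 and 548, a ratio of 0.445 (0.408 to 0.485). These 3 of 10 members compare with 18.9% of the 6009 genes with at least 20 UMIs that were lower by 2-fold, and 0 of 10 members were higher, against 7.54% of genes.

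Junb, Fosl2, Fosb and Fos were lower by less than 2-fold. Junb read 6135 and 3237, a ratio of 0.528 (0.509 to 0.547), and Fosl2 608 and 328, a ratio of 0.5405 (0.481 to 0.606). Fosb had a ratio of 0.594 (0.442 to 0.792) from 148 and 72 UMIs, and Fos one of 0.665 (0.629 to 0.704). The stress-induced Atf3 and the constitutive Jund had ratios with intervals across 1, at 0.973 (0.859 to 1.102) and 0.954 (0.8597 to 1.06), and so did Fosl1, at 1.88 (0.889 to 4.11) from 13 and 20 UMIs. The median ratio of the members was 0.567, beside 0.781 over all genes tested. Median-of-ratios scaling, which raises every ratio by 0.25 on the log2 scale and gives 10.7% higher and 11.9% lower of all genes, left Egr1 at 0.300, Jun at 0.511 and Btg2 at 0.530, so that 1 of 10 members was lower by 2-fold and 1, Fosl1, higher, and put Atf3 and Jund above 1, at 1.16 and 1.14. Smad3-KO neutrophil-like cells were the deeper ones, and the difference of Egr1, Jun, Junb and Btg2 had the same direction in each of 4 depth bands. For Fos it did not: in cells of 500 to 700 UMIs Fos read 2464 (2323 to 2610.4) in Smad3-WT and 2938 (2634 to 3267) in Smad3-KO, and above 1500 UMIs 1986 (1830.0 to 2153) and 1139 (1046 to 1238).

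**Figure D2:**
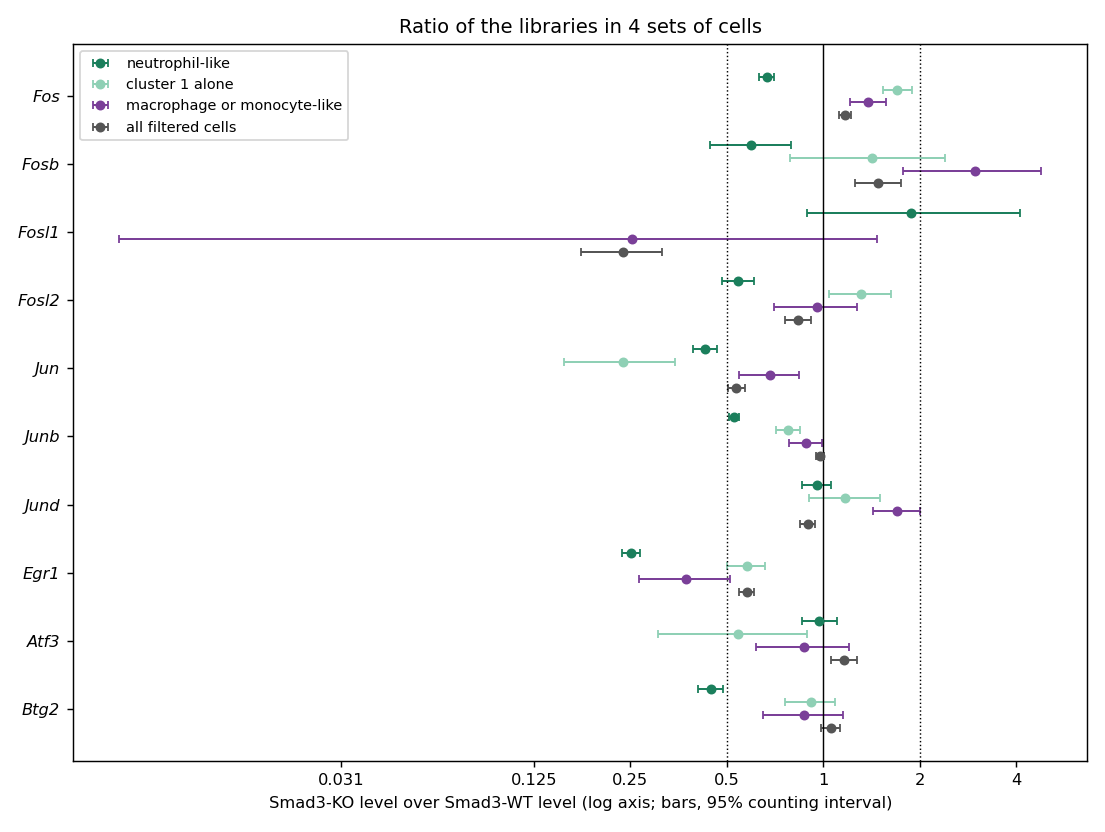
Ratio of the Smad3-KO level to the Smad3-WT level of each gene, on a log axis, in neutrophil-like cells, in cluster 1 of them alone, among macrophage or monocyte-like cells, and over all filtered cells; points with at least 20 UMIs are shown with 95% counting intervals, and dotted lines mark 2-fold. In neutrophil-like cells Egr1 (0.252), Jun (0.429) and Btg2 (0.445) lie below the lower dotted line, while in cluster 1 alone Fos lies at 1.70 and Jun at 0.236.

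Within the neutrophil-like cells the members differed between clusters, and Fos went apart from Jun. Cluster 1, led by Il1r2, Mmp9 and G0s2, held 1383 cells of Smad3-WT and 146 of Smad3-KO. Within it 1 of 9 members with at least 20 UMIs was lower in Smad3-KO by 2-fold, against 25.7% of 4494 genes, and 0 higher, against 8.3%. That one was Jun, at 1061 and 251 CPM from 1288 and 27 UMIs, a ratio of 0.236 (0.155 to 0.346). Egr1 was at 0.576 (0.501 to 0.659), Atf3 at 0.5402 (0.305 to 0.8904) and Junb at 0.778 (0.713 to 0.848). Fos lay on the other side, at 2297 and 3911, a ratio of 1.702 (1.53 to 1.89), as did Fosl2 at 1.31 (1.04 to 1.62). Fosb at 1.42 (0.788 to 2.398), Jund at 1.17 (0.8996 to 1.501) and Btg2 at 0.915 (0.761 to 1.09) had intervals across 1. Median-of-ratios scaling moves every ratio by -0.14 on the log2 scale here and gives 6.14% higher and 29.8% lower of all genes. It puts Fos at 1.55, Fosl2 at 1.19, Egr1 at 0.523 and Jun at 0.215, and it takes Atf3 past 2-fold, at 0.490. Fos and Fosl2, which were lower in Smad3-KO over all neutrophil-like cells, thus had ratios above 1 within cluster 1. For Fosl2 the interval began at 1.04 before scaling, and no interval was made for the scaled ratio.

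Cluster 2, led by Il1a, Csf3 and Stfa2l1, held 841 cells of Smad3-KO and 26 of Smad3-WT. In Smad3-KO 5 of 9 members were higher in cluster 1 than in cluster 2 by at least 2-fold, against 21.3% of 3468 genes, and 2 were lower, against 22.3%. Fos read 3911 in cluster 1 and 1271 in cluster 2, a ratio of 3.08 (2.75 to 3.44). The ratios of Fosl2, Fosb, Egr1 and Btg2 were 2.86, 2.76, 2.44 and 2.41. The reverse held for Jun, at 251 and 645, a ratio of 0.389 (0.254 to 0.571), and for Atf3, at 149 and 418, a ratio of 0.356 (0.201 to 0.584). In median-of-ratios scaling, which moves every ratio by -0.42 on the log2 scale and gives 11.4% higher and 29.5% lower of all genes, Egr1 and Btg2 were below 2-fold, at 1.82 and 1.80, and Fos, Jun and Atf3 at 2.30, 0.290 and 0.265. The 26 cells of Smad3-WT in cluster 2 read 1748 for Jun and 3747 for Egr1, from 35 and 75 UMIs, against 645 and 847 in Smad3-KO.

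Jun and Atf3 also went apart from the rest in Smad3-WT. Cluster 7 had the interferon-induced genes Ifit3b, Slfn4 and Rsad2 among its leading genes. Others were Hcar2, and Cxcl3 and Gm5483, which were also among those of cluster 1. Cluster 7 read 2030.0 for Jun and 652 for Atf3, against 1061 and 275 in cluster 1. The ratios of cluster 1 to cluster 7 were 0.523 (0.477 to 0.573) for Jun and 0.422 (0.356 to 0.501) for Atf3, while those of Junb, Btg2, Fosl2, Egr1 and Fos were 1.58, 1.66, 1.45, 1.24 and 1.201. Cluster 12, 66 cells of Smad3-KO led by the granule protein genes Camp, Ngp and Ltf of immature neutrophils, had the lowest level of Fos, Fosl2, Jun, Junb, Jund, Egr1, Atf3 and Btg2 among the 4 neutrophil-like clusters of that library. It read 138 for Egr1, 1182 for Junb, 288 for Btg2 and 926 for Fos. Each of these values rests on 1 library.

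**Figure D3:**
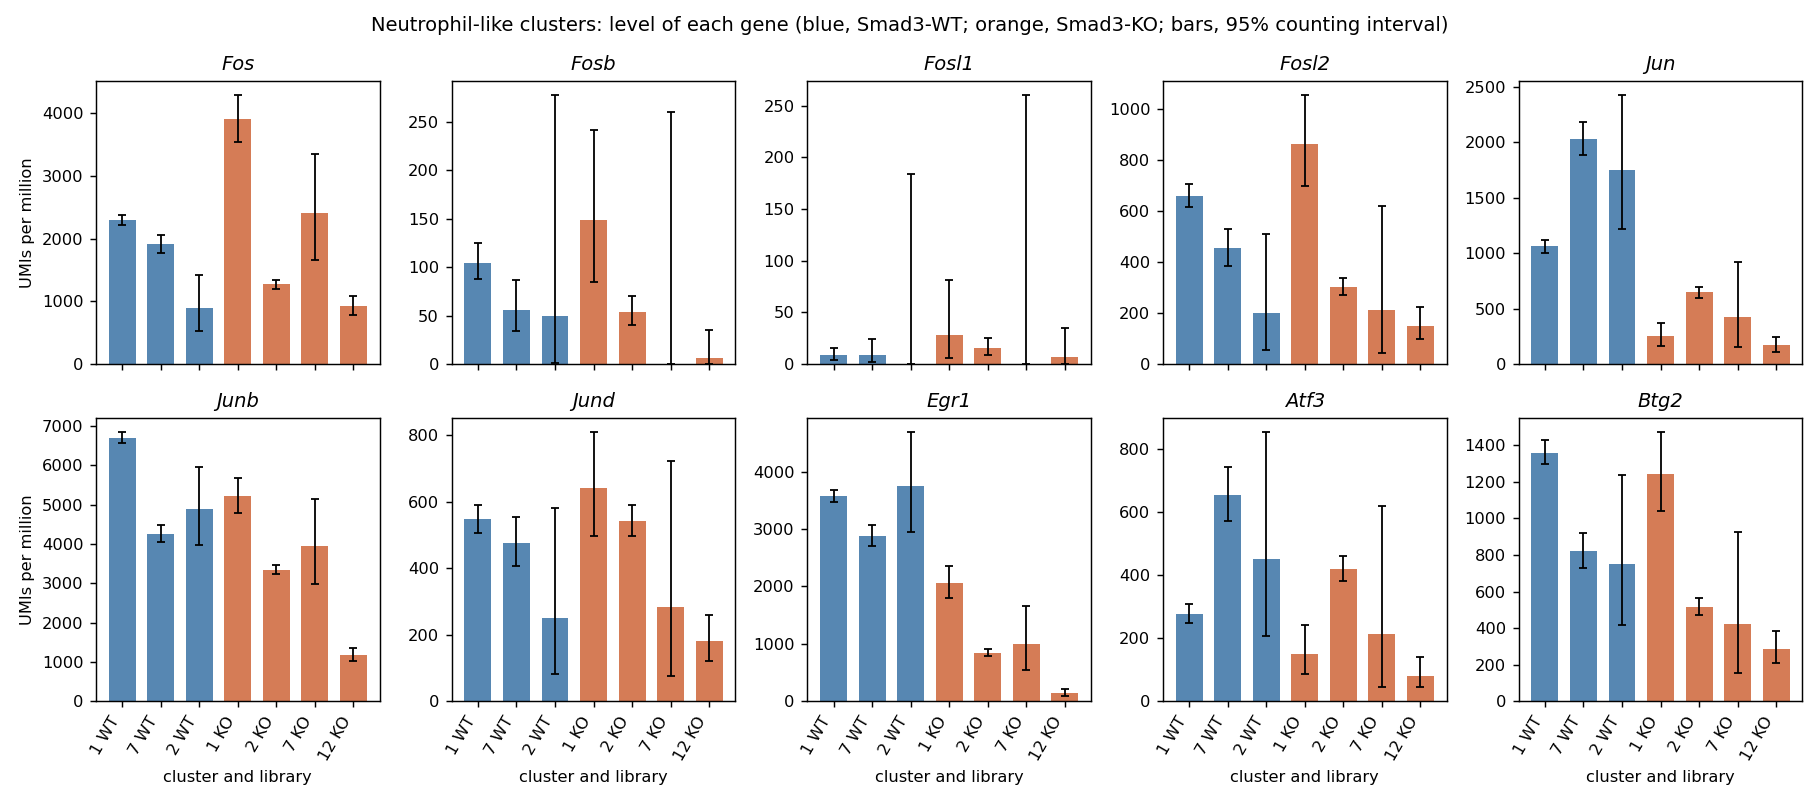
Level of each gene, in CPM, in the neutrophil-like clusters of each library (cluster 2 of Smad3-WT holds 26 cells and cluster 7 of Smad3-KO 21), with 95% Poisson intervals. Fos is highest in cluster 1 of Smad3-KO (3911), Jun in cluster 7 of Smad3-WT (2030) and lowest in cluster 12 of Smad3-KO (169), where Egr1 is also lowest (138).

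In macrophage or monocyte-like cells Fosb was higher and Egr1 lower in Smad3-KO. Fosb read 23.2 in Smad3-WT and 69.3 in Smad3-KO, from 107 and 21 UMIs, a ratio of 2.99 (1.78 to 4.800). Egr1 read 353 and 132, a ratio of 0.373 (0.266 to 0.511); both levels lay within the range of the neutrophil markers, at 0.103 of the neutrophil-like level in Smad3-WT (0.0623 to 0.119) and 0.153 in Smad3-KO (0 to 0.213). Counting Fosl1, with 60 and 1 UMIs and a ratio of 0.254 (0.00632 to 1.47), 2 of 10 members were lower by 2-fold, against 13.3% of 9243 genes, and 1 was higher, against 11.8%. Fos was at 1.38 (1.21 to 1.57), Jund at 1.697 (1.43 to 2.003), Jun at 0.6799 (0.546 to 0.838) and Junb at 0.8805 (0.7800 to 0.991). Fosl2, Atf3 and Btg2 had intervals across 1, at 0.955, 0.873 and 0.874. In cells of 500 to 1500 UMIs Fos was at 0.984, and Fosb (3 UMIs in the Smad3-KO library, 6 in the other) could not be measured.

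The 2 macrophage or monocyte-like clusters differed most in Jun, Atf3 and Fosl1. In Smad3-WT cluster 3, led by Ppbp, Pf4 and Arg1, read 608 for Jun and 201 for Atf3, against 218 and 70.8 in cluster 8, led by Ccl8 and C1qc. The ratios were 2.79 (2.51 to 3.12) and 2.85 (2.35 to 3.46), and that of Fosl1 was 3.52 (1.77 to 7.795). Fos, Egr1 and Fosl2 were at 1.87, 1.93 and 1.93, and Jund was at 0.841 (0.756 to 0.936). Median-of-ratios scaling, which raises every ratio by 0.11 on the log2 scale, puts Fos, Egr1 and Fosl2 past 2-fold, at 2.02, 2.09 and 2.09.

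Dendritic-like and T or NK-like cells were the other classes with at least 50 cells in both libraries. In dendritic-like cells Atf3 was at 2.77 (1.52 to 5.299) in Smad3-KO over Smad3-WT from 40 and 16 UMIs, the latter within the range of the neutrophil markers, Jund at 1.78 (1.35 to 2.34) and Fos at 1.74 (1.37 to 2.23), and Egr1 at 0.818 (0.579 to 1.15). The Smad3-WT levels of Fos and Egr1 in these cells were also within that range, whereas that of Jund was above it. In T or NK-like cells all 8 members with at least 20 UMIs had ratios below 1, with a median of 0.544 beside 0.957 for all genes. By 2-fold 3 were lower, against 12.4% of 6019 genes, and 0 higher, against 13.1%. The 3 were Fosl2 at 0.212 (0.121 to 0.363), Atf3 at 0.359 (0.147 to 0.873) and Egr1 at 0.375 (0.278 to 0.506). Jun was at 0.518 (0.349 to 0.776), Junb at 0.569 (0.485 to 0.669) and Btg2 at 0.660 (0.472 to 0.931). Jund and Fos had intervals across 1, at 0.809 (0.644 to 1.02) and 0.929 (0.712 to 1.22). Of the T or NK-like cells 62 were in Smad3-WT. Median-of-ratios scaling raises every ratio by 0.37 on the log2 scale here and gives 21.8% higher and 6.86% lower of all genes. It puts Fosl2, Atf3, Egr1 and Jun at 0.273, 0.462, 0.483 and 0.668, and Junb, Btg2, Jund and Fos at 0.733, 0.850, 1.04 and 1.197.

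Summed over all filtered cells, 1 of 10 members was lower in Smad3-KO by 2-fold, against 15.4% of 12612 genes, and 0 were higher, against 16.3%. That member was Fosl1, at 0.237 (0.176 to 0.314), the gene of the LLC-like cells that number 397 and 35. Jun was at 0.535 (0.503 to 0.568) and Egr1 at 0.577 (0.546 to 0.609), whereas Fos and Fosb were higher, at 1.17 (1.12 to 1.22) and 1.48 (1.25 to 1.75) and Junb at 0.977 (0.948 to 1.01). Neutrophil-like cells gave 13.1% of all Smad3-WT UMIs and 31.4% of those of Smad3-KO, so these sums mix the classes in unequal parts. With each cell drawn down to 500 UMIs Fos was at 0.673 and 6 members were lower by 2-fold, against 10.2% of the 8473 genes measured in that setting.

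Early gene UMIs were spread over most neutrophil-like cells. After every cell was drawn down to 500 UMIs, 72.5% (70.3% to 74.5%) of Smad3-WT neutrophil-like cells held at least 3 of the 10 members, against 43.4% (40.4% to 46.4%) in Smad3-KO, where the values before drawing down were 83.8% and 70.5%. The mean number of member UMIs per 500 was 8.13 and 4.34. In macrophage or monocyte-like cells 19.2% (16.9% to 21.7%) and 21.8% (14.8% to 30.4%) held at least 3, and in B cell-like and T or NK-like cells of Smad3-KO 3.87% and 1.94% did. Egr1 was found in 67.2% of the neutrophil-like cells of Smad3-WT and 27.7% of those of Smad3-KO at that depth, and in 76.2% and 43.1% before drawing down. Junb was found in 82.1% and 71.5%, or 88.3% and 86.8% before. Atf3 was found in 14.5% and 14.99%, or 20.4% and 28.1% before, and Fos in 45.6% and 39.9%, or 55.1% and 52.8% before. No kept cell was shallower than 500 UMIs.

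**Figure D4:**
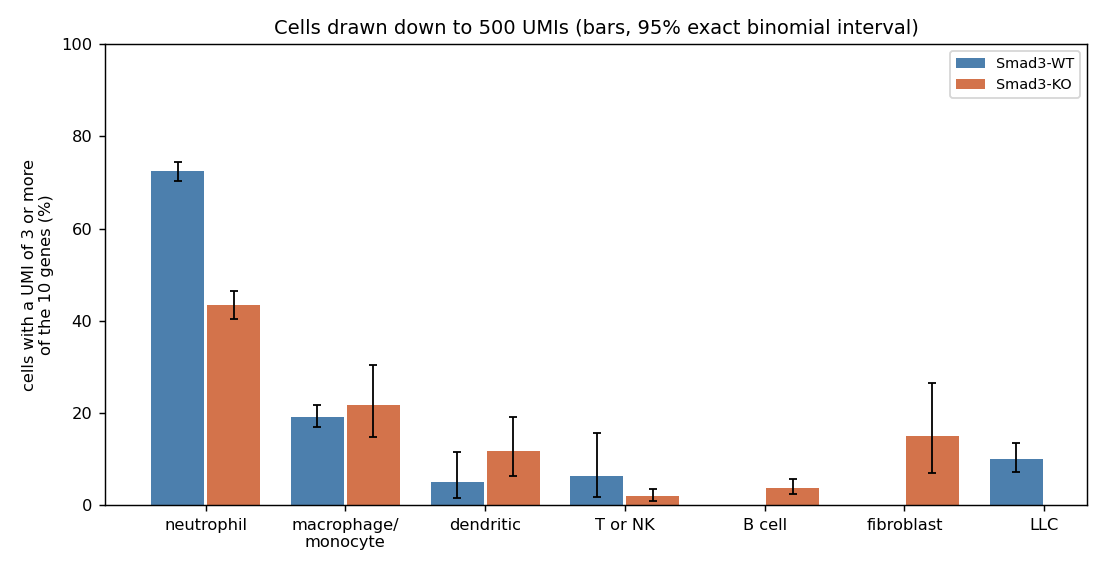
Share of cells, in percent, with a UMI of at least 3 of the 10 genes after each cell was drawn down to 500 UMIs, by class and library (blue, Smad3-WT; orange, Smad3-KO), with 95% exact binomial intervals. The neutrophil-like cells stand at 72.5% and 43.4%, and macrophage or monocyte-like cells, the next class, at 19.2% and 21.8%.

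In neutrophil-like cells Egr1 was detected more often where Fos was detected. At 500 UMIs per cell, in Smad3-WT, Egr1 was found in 73.8% (70.7% to 76.8%) of the cells with Fos and 61.7% (58.6% to 64.8%) of the cells without it. In Smad3-KO Egr1 was found in 37.4% (32.8% to 42.2%) of the cells with Fos and 21.2% (18.1% to 24.6%) of the cells without it. Fosb, which shares its partners with Fos, was found in 5.79% (4.300% to 7.604%) of the cells with Fos and 1.72% (1.003% to 2.74%) of the cells without it in Smad3-WT. Egr1 and Btg2 went together likewise, with Btg2 in 45.8% (42.97% to 48.6%) of the cells with Egr1 and 29.9% (26.2% to 33.7%) of the cells without it in Smad3-WT. Jun differed less by Fos: it was found in 35.2% (31.97% to 38.6%) of the cells with Fos and 33.5% (30.6% to 36.6%) of the cells without it in Smad3-WT, and in 23.4% (19.4% to 27.7%) of the cells with Fos and 20.1% (17.1% to 23.4%) of the cells without it in Smad3-KO. Jun differed more by Atf3, being found in 41.4% (35.4% to 47.7%) of the cells with Atf3 and 33.1% (30.8% to 35.5%) of the cells without it in Smad3-WT and in 33.5% (26.3% to 41.4%) of the cells with Atf3 and 19.3% (16.8% to 21.99%) of the cells without it in Smad3-KO. These shares describe cells of 1 library each, in which the clusters above are mixed.

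Other genes of the pathway were read from lists by role. Of the AP-1 partner genes, 17 of 20 had at least 20 UMIs in neutrophil-like cells. By 2-fold, 2 of them stood higher and 3 lower in Smad3-KO, against 7.54% and 18.9% of all genes in this and the next lists, with a median ratio of 0.733 beside 0.781 for all genes. Batf, a partner of JUN proteins in immune cells, read 19.5 in Smad3-WT and 312 in Smad3-KO, a ratio of 16.03 (11.1 to 23.9), and Jdp2, a repressor that pairs with JUN, had a ratio of 3.25 (2.63 to 4.04). Crem, a cAMP-responsive modulator, was at 0.4404 (0.327 to 0.587), and Atf1, Atf4 and Maff were at 0.520, 0.564 and 1.34.

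Of the other immediate early genes 24 of 26 were measured, and 3 were higher and 8 lower by 2-fold, against 7.54% and 18.9% of all genes, with a median ratio of 0.886. Egr2, the close relative of Egr1, read 125 in Smad3-WT and 10.7 in Smad3-KO, a ratio of 0.0859 (0.0461 to 0.148). Id1, an inhibitor of basic helix-loop-helix factors, was at 0.262 (0.211 to 0.323) and Zfp36l1, a factor of mRNA decay, at 0.349 (0.306 to 0.397). The highest ratios were those of Id2, a relative of Id1, at 9.71 (8.202 to 11.6), of Gadd45b, which is induced by stress, at 3.79 (3.58 to 4.01), and of Nfkbiz, an inducible partner of NF-κB, at 3.09 (2.85 to 3.34). Of the 24, 9 had ratios above 1 and 15 below.

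Of the MAP kinase phosphatases and feedback genes 7 of 11 were measured, with 1 higher and 2 lower by 2-fold and a median of 0.745. Dusp1, which inactivates JNK and p38, read 6369.7 in Smad3-WT and 4746 in Smad3-KO, a ratio of 0.745 (0.722 to 0.769). Dusp6, a cytoplasmic MAP kinase phosphatase, was at 0.367 (0.271 to 0.491) and Dusp2 at 5.35 (3.72 to 7.86); Dusp5 and Dusp16 were at 1.09 and 1.98. Of the MAP kinases and serum response factors 16 of 20 were measured, with 2 higher and 2 lower and a median of 0.920. Mapkapk2, a kinase below p38, was at 2.81 (2.495 to 3.17), Map3k8 at 2.04 (1.67 to 2.49) and Mapk13 at 1.70, while Mapk14, which encodes p38α, was at 0.485 (0.304 to 0.755) and Map2k2 at 0.667.

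Of the heat shock genes 12 of 13 were measured, with 0 higher and 3 lower by 2-fold and a median of 0.677. Hspa1a and Hspa1b, near-identical copies whose reads may have been split between them, were at 0.7205 (0.614 to 0.845) and 1.85 (1.48 to 2.31). They had 422 and 136 UMIs in Smad3-WT and 249 and 206 in Smad3-KO. Because of the possible split, these opposite ratios are not read as separate changes. Dnaja1 and Hsp90ab1 were at 0.541 and 0.633, and Hspa5 and Hsp90aa1 at 0.9903 (0.886 to 1.11) and 1.01 (0.888 to 1.16). Within cluster 1 the heat shock median was 0.379, beside 0.856 for all genes, and 6 of 10 measured genes were lower by 2-fold, against 25.7% of all genes. Of the known AP-1 target genes 5 of 10 were measured, with 0 higher and 1 lower and a median of 0.576. Mmp9, a gelatinase gene that was also one of the neutrophil markers, read 1192 in Smad3-WT and 403 in Smad3-KO, a ratio of 0.338 (0.306 to 0.372), and Plaur, Cd44 and Hmox1 were at 0.538, 0.576 and 0.580. Across these 6 lists 8 of 81 measured genes (9.88%) were higher and 19 (23.5%) lower by 2-fold, against 7.54% and 18.9% of all genes. With median-of-ratios scaling 13 were higher and 15 lower, against 10.7% and 11.9% of all genes in that scaling. The part of these genes in the members' levels was not tested.

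Averages over 13 clusters of the authors' own, drawn from both libraries, were deposited in UMIs scaled to the median barcode of 1311 UMIs. Clusters 6, 1, 10, 4 and 3 had the highest averages of the neutrophil gene S100a9, from 66.1 down to 37.6, and the other 8 clusters had 6.75 or less. Cluster 6 had the highest average of 6 members: Junb 10.01, Egr1 4.74, Fos 4.14, Btg2 2.23, Fosl2 1.11 and Fosb 0.166. Jun and Atf3 were elsewhere: Jun was highest in cluster 4 (1.54) and cluster 1 (1.49), with 0.873 in cluster 6, and Atf3 in cluster 3 (0.706), with 0.284 in cluster 6. Within the 5 clusters Egr1 ran from 1.05 in cluster 3 to 4.74 in cluster 6, and Atf3 from 0.191 in cluster 10 to 0.706 in cluster 3. Fosl1 was highest in cluster 11 (0.309), which had the highest average of the LLC keratin gene Krt8, and Jund in cluster 12 (0.9996). The averages carry no error and mix the 2 libraries.

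**Figure D5:**
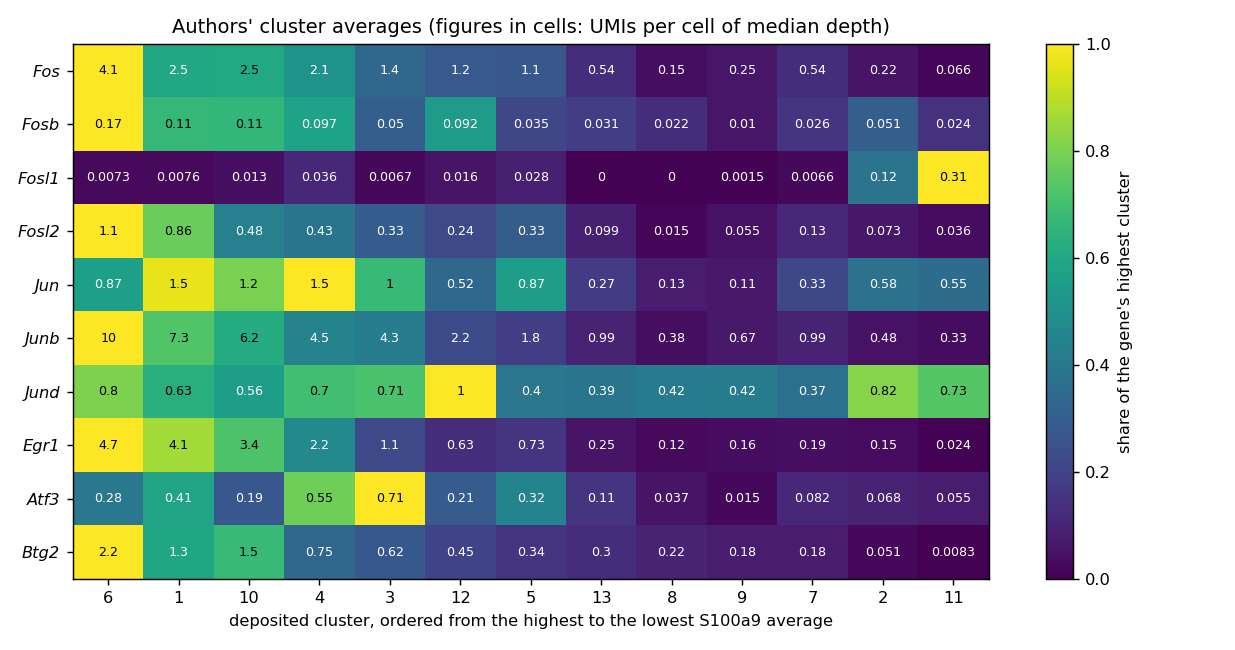
Authors' average of each gene in their 13 clusters (numbers in the cells, UMIs per barcode scaled to the median depth), colored by the share of the gene's highest cluster and ordered by the S100a9 average from left to right. Cluster 6 is highest for Fos (4.14), Fosb, Fosl2, Junb (10.0), Egr1 (4.74) and Btg2, whereas Atf3 is highest in cluster 3 (0.706) and Fosl1 in cluster 11 (0.309).

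Genes with a pattern like each member were sought over the 11 class and library profiles, as Pearson's r of log2(CPM + 10) among 7353 genes with at least 200 UMIs. The profiles share libraries, so these r are descriptions. Junb was most like Cd33 (0.99), Cd14 (0.98) and Rab44 (0.98), and Egr1 most like Mmp9 (0.96), Ddit3 (0.95) and Adgrg3 (0.95). Fos was most like Snx18 (0.97), Neat1 (0.95) and the early gene Dusp1 (0.95). Btg2 was most like Pde1b (0.97), Srgn and Abtb1, Atf3 like Nampt (0.97), Rab20 and Ell, and Jun like Txnrd1 (0.95), Slc16a3 and Csf1. Fosl2 was most like Tbc1d2b (0.96), Vmp1 and Hif1a, and Fosb like Fndc3b (0.93), Ampd3 and Gng12. Fosl1 was most like Tm4sf1 (0.95), Cald1 and Bcar1, and Jund, with the lowest leading value, like Dtx4 (0.86), Igf2r and Timp2.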

How the data were processed

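Droplet 5′ RNA-seq was made from sorted cells of 2 libraries, 1 per genotype. The authors deposited a matrix of UMI counts per gene and barcode (Cell Ranger 3.0.2, build mm10 in the submitters' processing notes, unnormalized), and tables of averages for each library, a UMI signal scaled by the authors to the median barcode, and for 13 clusters, a deposited score on the same scale. These tables also hold log2 fold changes and p-values of the authors' own comparisons, which were not used. Barcodes carry a library number. A number was tied to a genotype because its summed counts gave the deposited average named for that genotype within 3.58e-08.

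Barcodes of 500 to 20000 UMIs that had 200 genes or more and less than 10% mitochondrial UMIs were clustered with scanpy 1.11.5 and igraph 0.11.9 without the members and the listed genes, and clusters were named from marker lists. No doublet caller was run, and cells with UMIs of another class's markers were left out as an alternative. The macrophage and monocyte lists were joined after the clusters had been seen. The members and lists were chosen with earlier results of these data known. Levels are CPM (summed counts of a gene over all counts of the class, in units of 1000000) with exact Poisson intervals. Ratios carry the interval of the split of the UMIs, and shares exact binomial (Clopper-Pearson) intervals, all at 95%, and all covering counting error only. A difference was counted at 2-fold with at least 20 UMIs, a threshold of size and not a test. Cells were drawn down to 500 UMIs to compare shares. All members are named, and of each list the 3 genes with the highest and the 3 with the lowest ratio in neutrophil-like cells among those with at least 100 UMIs there, with fewer where the list is short. A gene that this rule would name is not reported here. The scripts were tested on simulated data (scipy 1.17.1 with numpy 2.4.6, under Python 3.11.15). The number of per-sample columns left out was 0.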

Additional observations from a re-analysis of the deposited data

Results flagged for a closer look

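Effects of opposite direction in 2 cell classes were looked for among the members. Fos was lower in Smad3-KO than in Smad3-WT neutrophil-like cells, at 0.665 (0.629 to 0.704). It was higher in macrophage or monocyte-like cells, at 1.38 (1.21 to 1.57), and in dendritic-like cells, at 1.74 (1.37 to 2.23). In cells of 500 to 1500 UMIs the macrophage or monocyte-like ratio of Fos was 0.984. In neutrophil-like cells of 500 to 700 UMIs Fos read 2464 CPM in Smad3-WT and 2938 in Smad3-KO. Fosb stood at 0.594 in neutrophil-like and 2.99 in macrophage or monocyte-like cells. Atf3 stood at 0.359 (0.147 to 0.873) in T or NK-like cells, from 12 UMIs in each library. In dendritic-like cells it stood at 2.77 (1.52 to 5.299), from 40 UMIs in Smad3-KO and 16 in Smad3-WT. The lower Atf3 level of each ratio lay within the range of the neutrophil markers. It was 0.0437 of the neutrophil-like level in T or NK-like cells of Smad3-KO (0.0206 to 0.0769). In dendritic-like cells of Smad3-WT it was 0.0942 (0 to 0.145). The Smad3-WT dendritic-like level of Fos, 239 CPM beside 2193 in neutrophil-like cells, also lay within that range. The higher Atf3 levels were 42.9 CPM in T or NK-like cells of Smad3-WT and 94.5 CPM in dendritic-like cells of Smad3-KO. How much of these levels is background was not tested. With 1 library per genotype the difference between classes was not tested. In cluster 1 of the neutrophil-like cells the ratio of Fos was 1.70 (1.53 to 1.89), on the side of the other classes.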

How the results depend on the processing

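With 1 library per genotype no library could be left out, depth limits the members with few UMIs (Fosl1, Fosb), and no cause of the changes below was tested. No paired analysis was possible because each genotype has 1 library. Egr1, Jun, Junb and Btg2 were below 1 in neutrophil-like cells in 18 of 18 alternatives. Their ranges were 0.248 to 0.576, 0.236 to 0.511, 0.522 to 0.778 and 0.435 to 0.915, in that order. The highest Btg2 ratio was that of cluster 1 alone, where its interval lay across 1 (0.761 to 1.09). The 18 alternatives share most of their cells. They include a stricter minimum of UMIs per gene, which leaves every ratio as it was. Of 844 single-gene values 25 reversed and 205 moved out of their counting interval. The rest include values that could not change, so their number does not measure stability. Changes of clustering or class naming alone leave the ratios over all cells as they were. Settings that only leave out neutrophil-like cells do the same for the macrophage or monocyte-like ratios, and the stricter minimum for every ratio.

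In neutrophil-like cells 1 member in place of 0 was higher under median-of-ratios scaling (10.7% of all genes). The same held without clusters led by Ngp, Camp or Ltf (7.66%) and without barcodes called in both libraries (7.59%). Under median-of-ratios scaling (11.9% of all genes) and in cluster 1 alone (25.7%) 1 in place of 3 was lower. In cluster 1 Fos, Fosb and Fosl2 reversed to 1.70, 1.42 and 1.31. The cluster 1 and barcode alternatives were chosen after seeing the data. In macrophage or monocyte-like cells 2 in place of 1 were higher at a clustering resolution of 0.1, against 15.6% of all genes. At that resolution LLC cells joined this class. With cells drawn down to 500 UMIs or limited to 500 to 1500 UMIs 0 were higher, against 10.8% and 9.52%. There Fosb had fewer than 20 UMIs, and it was at 2.14 to 3.13 in the other alternatives. In these 3 settings, without the upper UMI limit and with at least 100 UMIs per gene, 1 in place of 2 was lower. In the same order, 17%, 20.7%, 17.3%, 14.6% and 8.79% of all genes were lower. Fosl1 had too few UMIs to be counted in cells drawn down, at 500 to 1500 UMIs and with at least 100 UMIs per gene. Fos reversed to 0.984 (500 to 1500 UMIs), Junb to 1.06 (no upper limit) and 1.14 (resolution 0.1), and Jund to 0.901 (resolution 0.1).

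Over all cells 1 in place of 0 was higher without any filter and without the upper limit, against 22.3% and 22.5% of all genes. In place of 1, 6 (drawn down), 7 (500 to 1500 UMIs) and 4 (mean of single-cell CPM) were lower, against 10.2%, 9.54% and 13.5%. In these last 3 settings Fos was at 0.673, 0.464 and 0.632, Fosb at 0.801, 0.475 and 0.689, and Atf3 at 0.691, 0.568 and 0.716, and Fosl1 at 1.11 in the second. Without any filter and without the upper limit Fosl2 was at 1.37 and 1.38, and Egr1 at 1.05 and 1.07. Jund was at 1.11 in cells with a neutrophil marker UMI.

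For neutrophil-like over macrophage or monocyte-like cells of Smad3-WT, 5 in place of 8 members were higher at 500 to 1500 UMIs, against 19.8% of all genes. Jund was at 0.815 and Atf3 at 0.683 there, and Fosl1 had too few UMIs to be counted. Without the upper limit and at resolution 0.1, 1 in place of 0 was lower, against 54.7% and 54.5%. For Smad3-KO, 8 in place of 5 were higher with the members kept for clustering and with 30 principal components, each against 14.3% of all genes. The same count held under median-of-ratios scaling, against 30.2%. Fosl2 was at 0.860 at 500 to 1500 UMIs. Over the 6 lists 13 genes in place of 8 were higher with classes by marker score and under median-of-ratios scaling, against 6.56% and 10.7% of all genes. With at least 100 UMIs 10 in place of 19 were lower, against 14.9% of all genes. Fewer list genes were measured in that setting.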
